A study of Caenorhabditis elegans with 30 samples.

Results

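The spermatogenesis genes of C. elegans other than those for the major sperm protein (msp) were followed on 30 Affymetrix GeneChips. They were taken as the probe sets annotated to 1 gene whose symbol starts with spe- or nspd-, or is gsp-3, gsp-4, fer-1 or fer-14. This gave 38 of the 17118 genes that a probe set of this array measures alone, or 39 of 22625 probe sets: 29 spe genes, 6 nspd genes, gsp-3, gsp-4 and fer-1. The gene spe-55 had 2 probe sets and fer-14 had 0. Another 4 nspd probe sets stand for several genes each and fell outside the rule.

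Hermaphrodite worms make sperm for a short time at the end of larval life and then switch the germ line to oocytes, so an adult holds a fixed store of sperm. Spermatocytes build the proteins of the sperm in advance, loading the major sperm protein into fibrous bodies that sit on membranous organelles, and the finished spermatid makes little new RNA. Genes named spe (spermatogenesis defective) and fer (fertilization defective) were mostly found through mutants whose sperm fail, and they act at successive steps from sperm formation to fertilization.

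RNA came from pools of 500 to 1000 young adults, sorted by size with a COPAS Biosort after growth at 20 °C, with 3 arrays for each of 10 groups. Wild type N2 worms were kept on isotonic plates with 51 mM NaCl or placed on plates with 200 mM NaCl for 15 min, 1 h, 6 h or, from the first larval stage on, 1 generation. Mutants with a constitutive osmotic stress response, dpy-9(e12), dpy-10(e128), osm-8(n1518), osm-7(n1515) and osm-11(n1604), were grown on isotonic plates throughout. Each mutant is represented by 1 allele. In whole worms, fewer cells of a type and less RNA per cell cannot be told apart.

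Values are log2 intensities after the GC-RMA normalization of the authors, and a difference of 1 is a 2-fold change. Of the probe sets that are not controls, the brightest 61.5% were tested; 23 of the 39 member probe sets were among them and 16 were not. The line at which probe sets dropped out was a log2 intensity of 3.24, and a mean at or below it is called near background here, so that a rise starting there gives only the least size it can have. A probe set was called when limma's adjusted p was at most 0.01 and the change at least 3-fold. Within groups, the correlation of arrays over all probe sets was 0.990 to 0.998, and the median intensity of an array was 9.97 to 14.5, with the highest medians in dpy-9 and dpy-10. The osm-11 replicate 3 array was highest of its group for 6 of the 6 members nspd-1, nspd-2, nspd-4, nspd-7, gsp-3 and gsp-4. Over the 23 tested members it was highest for 10 and lowest for 8. For the same 6, dpy-9 replicate 3 was highest for 5. Over the 23, N2 isotonic replicate 2 was lowest for 14 and 1 h replicate 3 for 16.

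**Figure D1:**
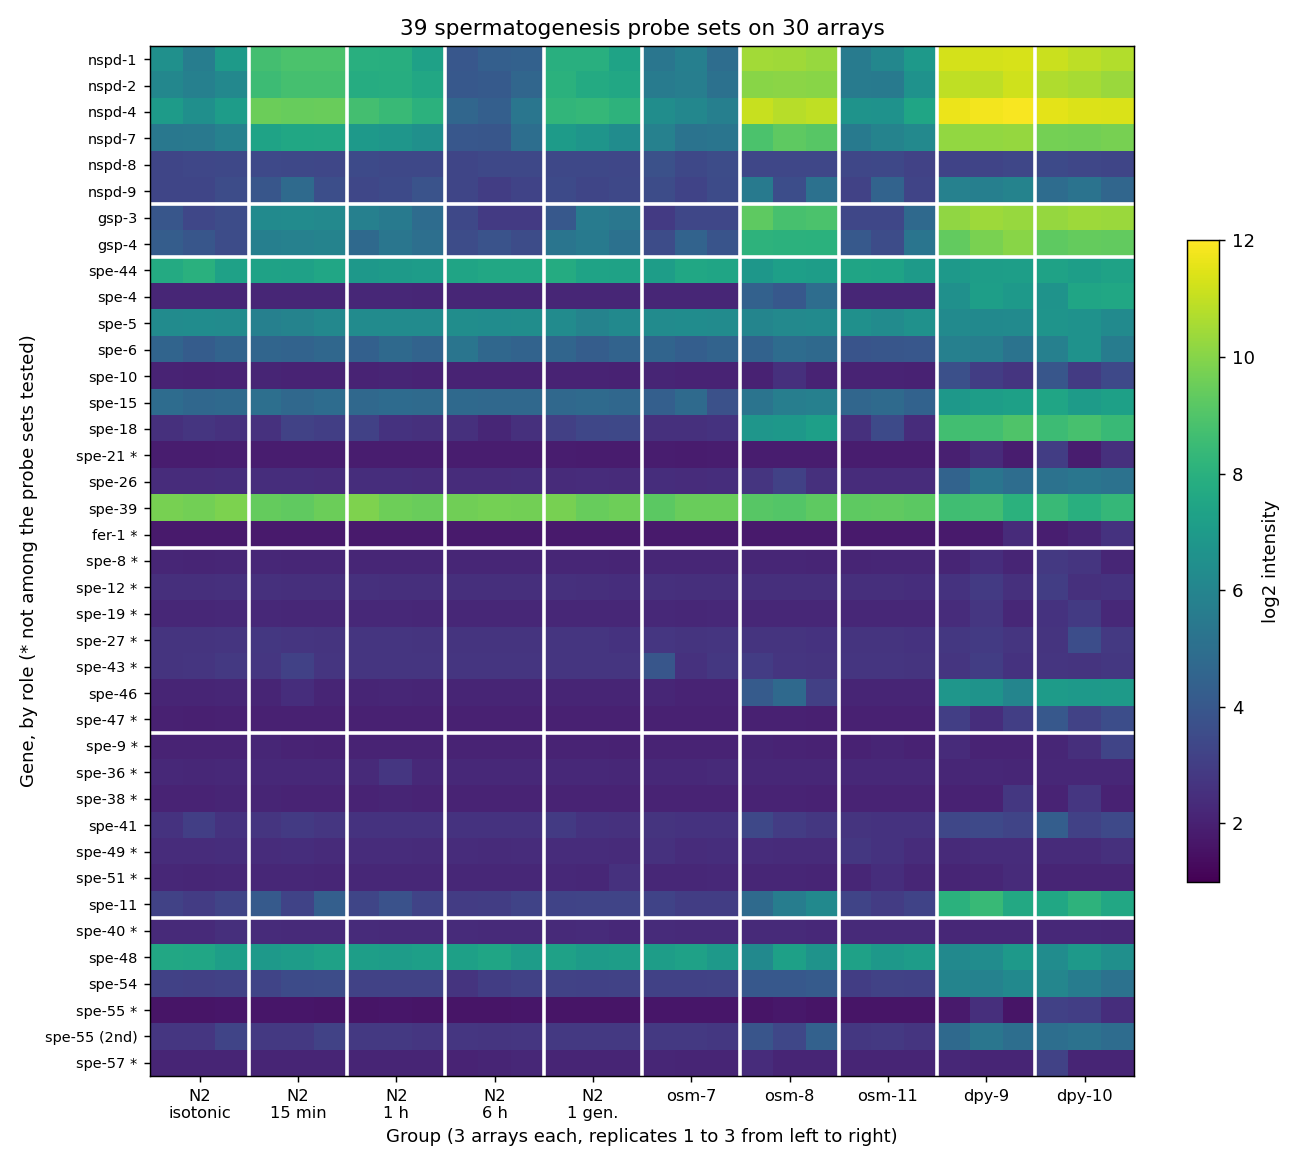
Log2 intensity of the 39 member probe sets (rows, grouped by role with the nspd family at the top, then the phosphatases, sperm formation, sperm activation, fertilization and unassigned roles) on the 30 arrays (columns, 3 per group). The nspd and gsp rows change along the N2 exposures, more rows are bright in osm-8, dpy-9 and dpy-10, and the 16 rows marked with a star, which were not tested, lie between 1.63 and 4.04.

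Members that were not tested belong to all roles but those of the nspd and gsp families. Among them are fer-1, whose ferlin protein fuses the membranous organelles with the cell surface, the tyrosine kinase gene spe-8 with spe-12, spe-19, spe-27 and spe-43 of the sperm activation pathway, and the sperm surface genes spe-9 and spe-38. Their log2 intensities lay between 1.63 and 4.04 on all 30 arrays. Of these 16, 3 exceeded the line of 3.24 on 1 or more dpy-9 or dpy-10 arrays, and 1 did so on another array. The highest was spe-47, whose protein holds back activation, at 4.04, 3.17 and 3.60 in dpy-10 against 2.00, 1.99 and 2.01 in N2 on isotonic plates. On isotonic plates, 14 of the 23 tested members had an N2 mean above 3.24 and 9 did not.

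Chromosomes of the 38 genes were read from the RefSeq table of assembly WBcel235. Chromosome I held 17 of them (44.7%), against 14.5% of the 17085 genes placed on the array. Chromosome IV held 10 (26.3%, against 15.6%), and chromosome X held 0, against 13.8% of the genes on the array. These shares are a description with no test, since the list holds gene families.

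Hypertonic stress in N2 worms was examined for how the sperm genes follow an acute and a lasting exposure to 200 mM NaCl. After 15 min, 6 of 23 tested members were higher than on isotonic plates (26.1%, against 1.28% of all probe sets tested) and 0 were lower (against 0.274%), with 3 lower at an unadjusted p under 0.05 in limma. The 6 were nspd-1, nspd-2, nspd-4, nspd-7, gsp-3 and gsp-4. Their rises were between 1.92 and 2.70 on the log2 scale, whereas the median change of the 23 members was 0.10 and that of all probe sets tested -0.07. The same 3 isotonic arrays serve as controls for each exposure. For 15 min, 1 h and 6 h, no isotonic group of matching time is among the 10 groups. Along these exposures, salt, handling and age of the worms cannot be told apart. Over the 4 exposures together, 6 members passed limma's F test with a 3-fold change at 1 or more of them (26.1%, against 2.90% of all probe sets tested).

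The nspd genes encode short nematode-specific peptides of group D that are abundant in the sperm-forming germ line. For nspd-1 the log2 intensities were 6.52, 5.68 and 7.01 on isotonic plates, 8.72, 8.89 and 8.86 at 15 min, 7.96, 7.89 and 7.30 at 1 h, 3.98, 4.32 and 4.41 at 6 h, and 7.93, 7.92 and 7.39 in worms of 1 generation. The gene was thus highest at 15 min and lowest at 6 h, and none of the 4 exposures overlapped with the isotonic arrays. It rose by 2.42 at 15 min (standard error 0.29, adjusted p = 0.000102 in limma, n = 3 arrays per group) and fell by 2.17 at 6 h (standard error 0.29, adjusted p = 0.000277). At 1 h and 1 generation the changes of 1.31 and 1.34 had adjusted p-values of 0.00931 and 0.0077 but stayed under 3-fold.

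For nspd-2 the arrays read 6.08, 5.79 and 6.14 on isotonic plates, 8.56, 8.77 and 8.78 at 15 min, 7.80, 7.86 and 7.58 at 1 h, 4.03, 4.13 and 4.62 at 6 h, and 8.02, 7.71 and 7.61 in worms of 1 generation. It was called at all 4 exposures, and its groups did not overlap with the isotonic arrays. The log2 change was 2.70 at 15 min (standard error 0.16, adjusted p = 5.68e-07 in limma), 1.74 at 1 h (adjusted p = 2.01e-05), -1.74 at 6 h (adjusted p = 1.53e-05) and 1.78 after 1 generation (adjusted p = 1.52e-05).

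Isotonic arrays of nspd-4 read 7.06, 6.49 and 7.07, those of 15 min 9.52, 9.45 and 9.50, of 1 h 8.73, 8.46 and 8.05, of 6 h 4.61, 4.33 and 5.32, and of 1 generation 8.26, 8.32 and 8.13. The order of the groups was that of nspd-1. The gene rose by 2.62 at 15 min (standard error 0.24, adjusted p = 1.33e-05 in limma) and fell by 2.12 at 6 h (adjusted p = 7.57e-05). Its changes of 1.54 at 1 h (adjusted p = 0.001) and 1.36 after 1 generation (adjusted p = 0.00191) stayed under 3-fold.

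In nspd-7 the isotonic arrays read 5.40, 5.43 and 5.84, those of 15 min 7.39, 7.54 and 7.58, of 1 h 6.95, 6.77 and 6.51, of 6 h 3.99, 3.94 and 4.99, and of 1 generation 7.02, 6.73 and 6.36. It moved less far than the other members of the family called, and no exposure overlapped with the isotonic arrays. The rise of 1.95 at 15 min was called (standard error 0.26, adjusted p = 0.000225 in limma), and the fall of 1.25 at 6 h (adjusted p = 0.00726) was not, being under 3-fold.

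The remaining nspd members, whose probe sets the manufacturer does not mark as able to bind other transcripts, were not called. Whether their probes do so was not tested. The gene nspd-9 had changes of 0.74 at 15 min (adjusted p = 0.0349 in limma), 0.16 at 1 h, -0.21 at 6 h and 0.00 after 1 generation. The gene nspd-8 stayed within 3.28 and 3.46 on all 15 wild type arrays, close to the background line. The isotonic mean of nspd-9 was close to this line too, at 3.4, so a fall of either gene could hardly show.

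The genes gsp-3 and gsp-4 encode nearly identical protein phosphatases of the PP1 type that sperm need for meiosis and for movement. For gsp-3 the isotonic arrays read 3.96, 3.33 and 3.54, those of 15 min 6.26, 6.30 and 6.18, of 1 h 5.78, 5.52 and 4.88, of 6 h 3.37, 2.87 and 2.87, and of 1 generation 4.05, 5.56 and 5.37. At 6 h the arrays overlapped with the isotonic ones, and after 1 generation replicate 1 was well below the other arrays of its group. The gene rose by 2.64 at 15 min (standard error 0.35, adjusted p = 0.000226 in limma) and by 1.78 at 1 h (adjusted p = 0.00468).

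The changes of gsp-3 at 6 h (-0.57, adjusted p = 0.413 in limma) and after 1 generation (1.38, adjusted p = 0.0188) were not called. The isotonic arrays of gsp-4 read 4.26, 3.94 and 3.57, those of 15 min 5.74, 5.84 and 5.93, of 1 h 4.74, 5.31 and 5.01, of 6 h 3.54, 3.82 and 3.55, and of 1 generation 5.29, 5.47 and 5.12. Except at 6 h, its groups lay above the isotonic arrays without overlap. It rose by 1.92 at 15 min (standard error 0.18, adjusted p = 1.47e-05 in limma), and the 1.10 at 1 h (adjusted p = 0.00135) and 1.37 after 1 generation (adjusted p = 0.000234) were under 3-fold.

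**Figure D2:**
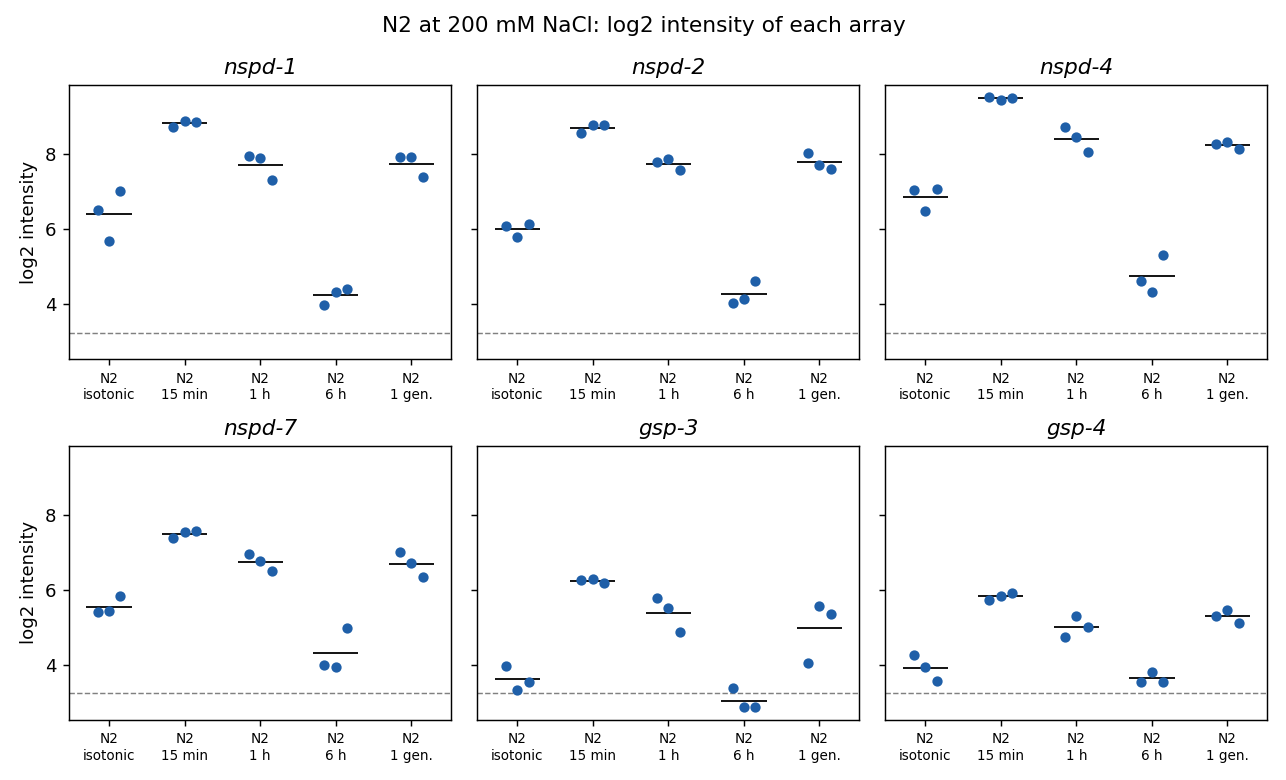
Log2 intensity (vertical axis) of nspd-1, nspd-2, nspd-4, nspd-7, gsp-3 and gsp-4 in N2 worms on isotonic plates and on 200 mM NaCl for 15 min, 1 h, 6 h or 1 generation. Points are the 3 arrays of a group, bars their mean, and the dashed line the background line of 3.24. By group mean, each gene is highest at 15 min and lowest at 6 h, where the arrays of gsp-3 and gsp-4 overlap with the isotonic ones.

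By exposure, 2 of 23 members were called higher at 1 h (nspd-2 and gsp-3, 8.70% against 0.981% of all probe sets tested) and 0 lower (against 0.166%), with 1 lower at an unadjusted p under 0.05 in limma. At 6 h, 3 were called lower (nspd-1, nspd-2 and nspd-4, 13.0% against 0.663%) and 0 higher (against 0.700%), also at an unadjusted p under 0.05 in limma. After 1 generation, 1 was called higher (nspd-2, 4.35% against 0.959%) and 0 lower (against 0.224%), also at an unadjusted p under 0.05. The 1 h call of gsp-3 ended when N2 isotonic replicate 2 (adjusted p = 0.0229 in limma), N2 isotonic replicate 3 (0.0147), 1 h replicate 1 (0.023) or 1 h replicate 2 (0.0207) was left out.

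All 6 members called along the exposures have probe sets ending in _x_at, a suffix with which the manufacturer marks probes that can bind transcripts of other genes. Of the 11 tested members with the plain suffix _at, 0 were called at any exposure. The probe sets of the 4 nspd genes and of the gsp pair may read each other's transcripts. Whether they do was not tested, so their rises and falls cannot be counted as 6 independent measurements. The probe sets of the excluded nspd group (nspd-11, nspd-6 and nspd-3 together, nspd-6 with nspd-3 on 2 probe sets, and nspd-5 with nspd-4) also end in _x_at, and rose at 15 min by 2.05, 2.64, 2.41 and 2.68 in that order, all 4 called.

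Consecutive exposures were compared directly, with no isotonic array entering the difference. From 15 min to 1 h, 0 of 23 members were called (0.563% of all probe sets tested were called higher and 0.224% lower), whereas 2 were higher and 9 lower at an unadjusted p under 0.05 in limma, and all 6 genes above were lower by 0.76 to 1.11 with adjusted p-values from 0.00294 to 0.163. From 1 h to 6 h, 5 of 23 members fell (21.7%, against 1.38% of all probe sets tested) and 0 rose (against 0.346%), with 1 higher at an unadjusted p under 0.05. These were nspd-4 (-3.66, adjusted p = 6.47e-07), nspd-2 (-3.49, adjusted p = 6e-08), nspd-1 (-3.48, adjusted p = 4.68e-06), nspd-7 (-2.44, adjusted p = 4.24e-05) and gsp-3 (-2.36, adjusted p = 0.000641).

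From 6 h to 1 generation, 6 of 23 members rose (26.1%, against 0.801% of all probe sets tested) and 0 fell (against 0.130%), with 1 lower at an unadjusted p under 0.05 in limma. The worms of these groups differ in more than time, since those of 1 generation grew up on 200 mM NaCl. The differences were 3.52 for nspd-2, 3.51 for nspd-1, 3.48 for nspd-4, 2.40 for nspd-7, 1.96 for gsp-3 and 1.66 for gsp-4, with adjusted p-values in limma between 8.84e-08 and 0.00335. The call of gsp-3 ended when 6 h replicate 2 or 3, or 1 generation replicate 2 or 3, was left out (adjusted p between 0.016 and 0.019), and that of gsp-4 when 1 generation replicate 2 was (1.57, under 3-fold).

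Genes of the spe type did not take part in these calls. Of 15 tested spe members, 0 were called at any of the 4 exposures, and their changes lay between -0.70 and 0.74. Over all probe sets tested, an exposure had 0.700% to 1.28% called higher and 0.166% to 0.663% called lower. A count of 0 among 15 thus does not by itself set these genes apart from the array. For 9 of these 15 the N2 mean lay near background, where a fall cannot show, which held for 0 of the tested nspd and gsp members. The N2 means of nspd-8, nspd-9, gsp-3 and gsp-4 were not far above the line, at 3.34 to 3.92. The largest rise was that of spe-11, a gene whose product the sperm brings into the egg, with arrays at 4.10, 3.20 and 4.34 after 15 min against 3.18, 2.96 and 3.26 on isotonic plates (0.74, adjusted p = 0.0403 in limma). These arrays overlapped. The largest fall was that of spe-44 at 1 h (-0.70, adjusted p = 0.0103), a transcription factor gene that switches on the sperm program.

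Fixed lists of other genes were read beside the members, by counts and medians only. At 15 min, 5 of 16 tested sperm genes outside the msp, spe, nspd and gsp families rose (median 1.18) and 23 of 23 msp genes rose (median 2.59). At 6 h, 2 of the 16 and 21 of the 23 msp genes fell. The probe sets of the 23 msp genes and of these 2 genes also end in _x_at. Whether they read each other's transcripts was not tested, so they cannot be counted as independent measurements. Among the 16 were the sperm-specific genes msd-4 and ssq-2, with log2 changes of 2.75 and 2.53 at 15 min. The probe set of ssq-2 has the plain suffix _at, while that of msd-4 ends in _x_at. At 6 h the change of ssq-2 (-0.78) was not called. Of 21 oocyte and eggshell genes, 0 were called at any exposure, and the range of their summed intensity was 182000 to 188200 on isotonic plates and 141100 to 143000 at 15 min. Of 16 genes of the germ line of both sexes, 0 were called (at 15 min, summed intensity 30560 to 31940 against 30710 to 32830). Of 11 late larval molt genes, 2 were called higher at 1 h and 0 at the other exposures. The part of a changed number of sperm per worm in the rises and falls was not tested.

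Mutants were compared with N2 on isotonic plates, to see whether worms with an osmotic response switched on by a mutation carry the same genes at another level. In osm-7, 0 of 23 members were called (1.85% of all probe sets tested were called higher and 0.267% lower), and 0 were higher and 4 lower at an unadjusted p under 0.05 in limma. The changes lay between -1.07 (nspd-1, adjusted p = 0.0339) and 0.21. In osm-11, 0 of 23 were called as well (3.18% of all probe sets tested were called higher and 0.216% lower), with 0 higher and 3 lower at an unadjusted p under 0.05, and changes between -0.50 and 0.38.

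The osm-11 arrays of nspd-1 read 5.58, 6.11 and 6.90, those of gsp-3 3.36, 3.35 and 4.76, and those of gsp-4 4.09, 3.55 and 5.28. Replicate 3 was highest in each, and the summed intensity of the msp genes ranged from 11300 to 27500 in this group. With replicate 3 left out, still 0 members were called in osm-11. Between osm-11 and osm-7 0 members were called (0.447% of all probe sets tested were called higher and 0.0288% lower), with 4 higher and 2 lower at an unadjusted p under 0.05 in limma.

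In osm-8, 10 of 23 members were higher than in N2 (43.5%, against 7.91% of all probe sets tested) and 0 were lower (against 0.887%), with 3 lower at an unadjusted p under 0.05 in limma. In dpy-9, 15 of 23 were higher (65.2%, against 16.0%) and 0 lower (against 7.98%), and the dpy-10 arrays had 14 of 23 higher (60.9%, against 18.1%) and 0 lower (against 10.2%), with 3 lower at an unadjusted p under 0.05 in each. The median change of the 23 members was 0.98, 2.50 and 2.48, beside -0.16, -0.23 and -0.21 over all probe sets tested. In osm-11 that overall median was -0.11, and with each array centred on its median all calls named here were kept and 1 was added, spe-39 lower in dpy-10 (-1.61, adjusted p = 2.49e-07 in limma). The 3 mutants were compared with the same 3 N2 arrays. Probe sets were also chosen from the 24 arrays outside the dpy mutants, which leaves out spe-10, spe-26 and spe-41. Then 14 of 20 members were called in dpy-9, 13 of 20 in dpy-10 and 10 of 20 in osm-8. These 24 arrays still include those of osm-8, through which alone spe-4, spe-46 and spe-55 passed. The osm-8 count is thus not independent of that choice. None of the called members overlapped with N2 in these mutants, but the same held for several members that were not called. Arrays clear of N2 were seen for 22 of 23 members in dpy-9, for 20 in dpy-10 and for 18 in osm-8. The share over all probe sets tested is not given here, so the lack of overlap is no added evidence for the calls. In 4 of the 10 calls of osm-8 and in 7 of those of dpy-9 and of dpy-10 the N2 arrays lay near background.

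The nspd family had 5 of its 6 members called in dpy-9, and 4 in dpy-10 as in osm-8. For nspd-1 the arrays read 10.48, 10.41 and 10.31 in osm-8, with dpy-9 at 11.29, 11.29 and 11.35 and dpy-10 at 11.14, 10.91 and 10.74, all above the 5.68 to 7.01 of N2. Its log2 change was 4.0 in osm-8 (standard error 0.32, adjusted p = 4.39e-08 in limma), 4.90 in dpy-9 (adjusted p = 1.36e-09) and 4.53 in dpy-10 (adjusted p = 2.99e-09). Arrays of nspd-4 read 11.08, 10.83 and 10.93 in osm-8, with dpy-9 at 11.67, 11.79 and 11.91 and dpy-10 at 11.56, 11.41 and 11.37, and its changes were 4.08, 4.92 and 4.57 (adjusted p = 4.89e-10, 1.59e-11 and 3.7e-11 in limma).

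In nspd-2 the changes in osm-8, dpy-9 and dpy-10 were 4.07, 5.02 and 4.54, and in nspd-7 they were 3.54, 4.68 and 4.15. All of these calls again come from probe sets ending in _x_at. The member nspd-9, whose probe set has the plain suffix, was called in dpy-9 (2.45, adjusted p = 3.47e-05 in limma), while in osm-8 (1.35, adjusted p = 0.0088) and dpy-10 (1.52, adjusted p = 0.00237) it was higher by less than 3-fold. The member nspd-8 had changes of 0.00, -0.09 and 0.03. Of the probe sets shared between nspd genes, all 4 were called in osm-8 (3.40 to 4.16), dpy-9 (4.30 to 5.07) and dpy-10 (4.02 to 4.71).

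Both sperm phosphatase genes were called in the 3 mutants. Arrays of gsp-3 read 9.27, 8.79 and 8.89 in osm-8, with dpy-9 at 10.19, 10.37 and 10.31 and dpy-10 at 10.26, 10.40 and 10.36, against 3.33 to 3.96 in N2. The changes were 5.37 in osm-8 (standard error 0.29, adjusted p = 4.16e-10 in limma), 6.68 in dpy-9 (adjusted p = 9.19e-12) and 6.73 in dpy-10 (adjusted p = 8.72e-12). For gsp-4 the arrays read 8.10, 8.08 and 8.04 in osm-8, with dpy-9 at 9.37, 9.78 and 10.05 and dpy-10 at 9.26, 9.42 and 9.35, and the changes were 4.15, 5.81 and 5.42.

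Sperm formation genes numbered 9 tested members, of which 2 were called higher in osm-8 and 4 in each dpy mutant. The gene spe-18 is needed to assemble the fibrous bodies. Its arrays read 2.53, 2.71 and 2.56 in N2, 6.79, 6.86 and 7.20 in osm-8, with dpy-9 at 8.65, 8.66 and 8.95 and dpy-10 at 8.56, 8.81 and 8.46. From this near-background level it rose by 4.35 in osm-8 (standard error 0.22, adjusted p = 1.57e-10 in limma), by 6.16 in dpy-9 (adjusted p = 6.68e-13) and by 6.01 in dpy-10 (adjusted p = 1e-12).

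The gene spe-4 encodes a protein of the presenilin family in the membranous organelles. It was steady at 2.17 to 2.20 in N2 on isotonic plates, and read 4.40, 4.03 and 4.93 in osm-8, with dpy-9 at 6.53, 7.17 and 6.96 and dpy-10 at 6.64, 7.47 and 7.57. The rises of 2.27, 4.70 and 5.04 (adjusted p = 1.02e-06, 5.64e-11 and 2.36e-11 in limma) are lower bounds. Outside these mutants no array of spe-4 exceeded 2.22. The gene thus entered the test only through these mutants, and its calls there are not independent of that choice.

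Also among the formation genes, spe-15 encodes a myosin that sorts the contents of the dividing spermatocyte, and spe-26 a kelch protein. The N2 mean of spe-15 was 4.77, and its changes were 0.79 in osm-8 (adjusted p = 0.00841 in limma, under 3-fold), 2.32 in dpy-9 (adjusted p = 1.79e-07) and 2.48 in dpy-10 (adjusted p = 6.9e-08). That of spe-26 was 2.41, with changes of 0.36 in osm-8 (adjusted p = 0.0962), 2.50 in dpy-9 (adjusted p = 3.08e-09) and 2.77 in dpy-10 (adjusted p = 7.55e-10). This gene entered the test only through the dpy arrays, where it is high, so its calls there are not independent of that choice. The casein kinase gene spe-6 had changes of 0.29, 1.12 and 1.58 and the palmitoyltransferase gene spe-10 of 0.15, 1.05 and 1.34, none of them called.

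Not every gene of the group was higher. The gene spe-44 was already well above background in N2, at a mean of 7.67, and its values in osm-8, dpy-9 and dpy-10 differed from N2 by -0.62, -0.59 and -0.39 (adjusted p = 0.00911, 0.00783 and 0.0634 in limma). The gene spe-39, whose vesicle trafficking protein is used in many tissues, had an N2 mean of 9.76 and differed by -0.60, -1.30 and -1.52 (adjusted p = 0.00696, 3.56e-06 and 5.65e-07), all under 3-fold. The proton pump gene spe-5 differed by -0.17, -0.06 and 0.20.

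**Figure D3:**
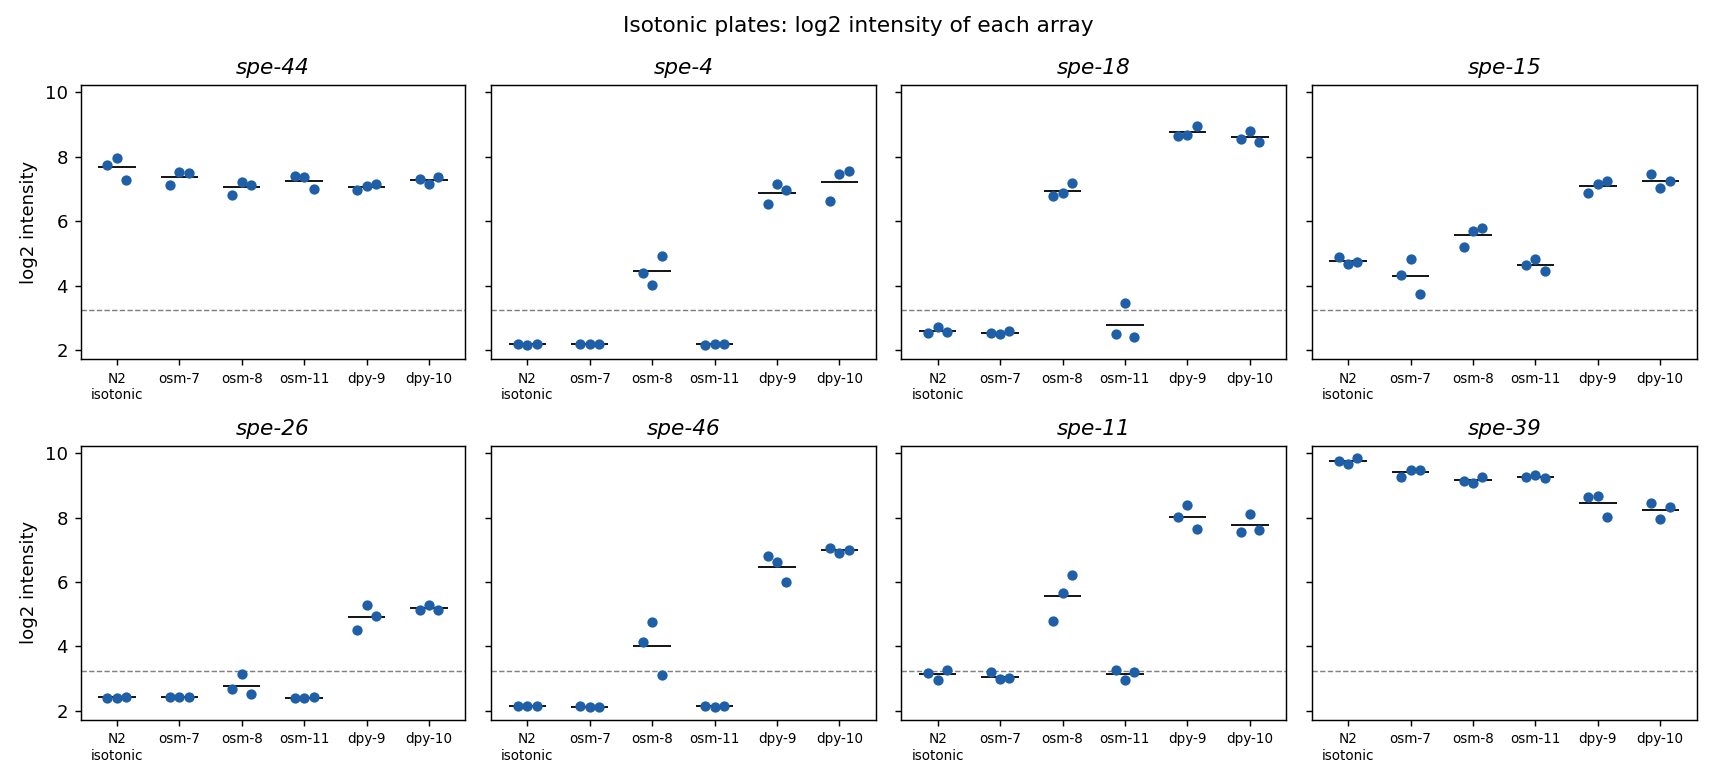
Log2 intensity (vertical axis) of 8 members in N2 and the 5 mutants on isotonic plates. Points are the 3 arrays of a group, bars their mean, and the dashed line the background line of 3.24; spe-4, spe-18, spe-46 and spe-11 are raised in osm-8 and more in dpy-9 and dpy-10, whereas spe-44 stays near its N2 mean of 7.67 and spe-39 is lower.

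Sperm activation genes had 1 tested member of 7, spe-46, which encodes a membrane protein that holds back activation. Its arrays read 2.16, 2.14 and 2.17 in N2, 4.15, 4.76 and 3.11 in osm-8, with dpy-9 at 6.80, 6.63 and 6.01 and dpy-10 at 7.05, 6.90 and 6.99. The osm-8 arrays were spread widely, and with osm-8 replicate 2 left out the rise of 1.85 (adjusted p = 7.11e-05 in limma) became 1.47 and the call ended. In dpy-9 and dpy-10 the gene rose by 4.32 (adjusted p = 1.63e-09) and 4.82 (adjusted p = 3.83e-10). Outside osm-8, dpy-9 and dpy-10 no array of spe-46 exceeded 2.44. It entered the test only through these mutants, so its calls are not independent of that choice.

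Fertilization and the early embryo were represented by 2 tested members of 7. For spe-11, which acts in the embryo after the sperm delivers it, the arrays read 4.79, 5.65 and 6.22 in osm-8, with dpy-9 at 8.03, 8.40 and 7.65 and dpy-10 at 7.56, 8.11 and 7.61, above the 2.96 to 3.26 of N2. It rose by 2.42 in osm-8 (standard error 0.28, adjusted p = 2.91e-06 in limma), by 4.89 in dpy-9 (adjusted p = 2.32e-10) and by 4.62 in dpy-10 (adjusted p = 4.07e-10). The cation channel gene spe-41 read 2.61, 3.06 and 2.62 in N2, 3.38, 2.95 and 2.78 in osm-8, with dpy-9 at 3.33, 3.45 and 3.25 and dpy-10 at 4.30, 3.14 and 3.42, and was not called.

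Members whose role is not given here were spe-40, spe-48, spe-54, spe-55 and spe-57. Arrays of spe-54 read 3.12, 3.10 and 3.15 in N2, 4.04, 4.02 and 4.14 in osm-8, with dpy-9 at 5.98, 5.87 and 6.23 and dpy-10 at 6.06, 5.61 and 5.15. It rose by 2.90 in dpy-9 (adjusted p = 3.68e-10 in limma) and 2.48 in dpy-10 (adjusted p = 2.1e-09), while the difference of 0.94 in osm-8 was under 3-fold. The tested probe set of spe-55 read 2.75, 2.72 and 3.25 in N2, 3.88, 3.36 and 4.41 in osm-8, with dpy-9 at 4.76, 5.31 and 4.99 and dpy-10 at 4.95, 5.15 and 4.90. It rose by 2.11 and 2.10 in dpy-9 and dpy-10, while the gene's other probe set was not tested and lay between 1.63 and 3.13. The tested probe set entered the test only through osm-8, dpy-9 and dpy-10, so its calls are not independent of that choice. The gene spe-48 differed from N2 by -0.70, -0.90 and -0.83 in osm-8, dpy-9 and dpy-10, under 3-fold.

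**Figure D4:**
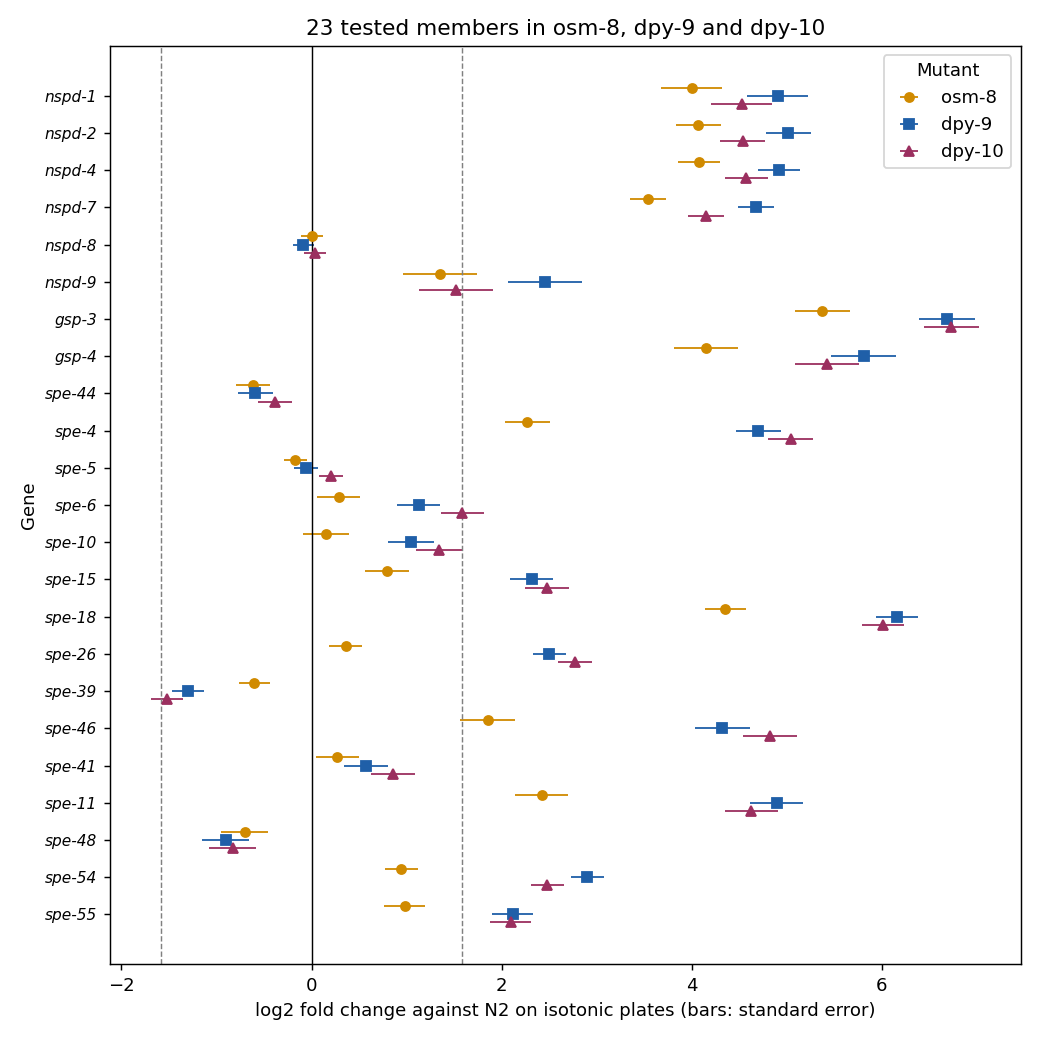
Log2 fold change against N2 on isotonic plates (horizontal axis) of the 23 tested members in osm-8, dpy-9 and dpy-10, with standard errors as bars and a 3-fold change as dashed lines. The called members lie between 1.85 and 5.37 in osm-8, between 2.11 and 6.68 in dpy-9, and between 2.10 and 6.73 in dpy-10.

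Mutants were also compared with each other, leaving N2 out of the difference. Between osm-8 and osm-7, 10 of 23 members were higher in osm-8 (43.5%, against 4.76% of all probe sets tested) and 0 lower (against 0.837%), also at an unadjusted p under 0.05 in limma. The call of spe-46 (1.88) ended without osm-8 replicate 2 (1.50). Calls of spe-46 and spe-4 are not independent of the filter, which these genes passed only through osm-8, dpy-9 and dpy-10. The difference was 5.78 for gsp-3, 5.07 for nspd-1, 4.41 for spe-18, 2.49 for spe-11 and 2.26 for spe-4 (adjusted p between 1.5e-10 and 3.49e-06 in limma). Between dpy-9 and osm-8, 7 of 23 members were higher in dpy-9 (30.4%, against 6.00%) and 0 lower (against 1.55%), with 1 lower at an unadjusted p under 0.05. They were spe-46 (2.47), spe-11 (2.47), spe-4 (2.43), spe-26 (2.14), spe-54 (1.96), spe-18 (1.80) and gsp-4 (1.65), with adjusted p-values in limma between 1.21e-07 and 0.00105. For spe-26, which was tested only through the dpy arrays, the osm-8 arrays lay near background (6 of 20 members were called without the 3 such members), and the call of gsp-4 ended without dpy-9 replicate 3 (1.50).

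The nspd genes and gsp-3 were also higher in dpy-9 than in osm-8, but by less than 3-fold: nspd-1 by 0.91 (adjusted p = 0.0352 in limma), nspd-2 by 0.95 (0.00463), nspd-4 by 0.84 (0.00713), nspd-7 by 1.14 (0.000181) and gsp-3 by 1.31 (0.00204). Between dpy-10 and dpy-9, 0 of 23 members were called (0.224% of all probe sets tested were called higher and 0.404% lower), with 1 higher and 3 lower at an unadjusted p under 0.05. The differences lay between -0.94 and 0.50, and the lowest adjusted p in limma was 0.11, which does not show that the levels were equal.

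Other gene lists moved in the same mutants. Of 16 tested sperm genes outside the member families, 13 were higher in osm-8 (median 3.13), 14 in dpy-9 (4.42) and 14 in dpy-10 (4.32). Among these were the sperm chromatin gene spch-1 (4.26, 6.20 and 6.01), ssq-2 (4.04, 5.48 and 4.99) and the Argonaute gene alg-4, which acts in the small RNA pathway of sperm formation (3.09, 4.89 and 5.22). The zinc transporter gene zipt-7.1 was called lower in dpy-9 (-1.77) and dpy-10 (-2.03). All 23 msp genes were higher in each (medians 3.69, 4.57 and 4.21). Their probe sets end in _x_at and cannot be counted as 23 independent measurements. Between dpy-9 and osm-8 0 of the 23 msp genes were called (median difference 0.99), beside the 7 of 23 members. Whether the families differ in this was not tested.

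Germ line genes of the female side went the other way in the dpy mutants. Of 21 oocyte and eggshell genes, 18 were lower in dpy-9 (median -1.92), 19 in dpy-10 (median -2.20) and 0 in osm-8 (median -0.84). Over all probe sets tested, 7.98% were lower in dpy-9, 10.2% in dpy-10 and 0.887% in osm-8. Their summed intensity was 182000 to 188200 in N2, 99940 to 109200 in osm-8, 45870 to 56390 in dpy-9 and 39060 to 44170 in dpy-10. The eggshell genes egg-1 and egg-2 fell by 2.29 and 2.35 in dpy-9 and by 2.63 and 2.71 in dpy-10. Of 16 genes of the germ line of both sexes, 3 were lower in dpy-9, 3 in dpy-10 and 0 in osm-8, with summed intensities of 30710 to 32830 in N2, 21140 to 21340 in osm-8, 15600 to 17540 in dpy-9 and 13990 to 16170 in dpy-10. In dpy-10 the lowest mean log2 intensity was 7.8 on the oocyte and eggshell list and 6.5 on the list of both sexes, above the background line of 3.24.

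Genes of the late larval molt, which worms of the last larval stage use to build the adult cuticle, rose in the same mutants. Of 11 tested, 10 were higher in dpy-9, 9 each in osm-8 and dpy-10, 3 in osm-11 and 2 in osm-7. Their summed intensity was 237.3 to 328.6 in N2, 407.5 to 489.7 in osm-7, 504.9 to 1047 in osm-11, 3706 to 4888 in osm-8, 16850 to 21070 in dpy-9 and 12490 to 14320 in dpy-10. The genes dpy-5 and sqt-1 of the list, which serve collagen processing and the cuticle, had log2 changes of 5.74 and 4.98 in osm-8 and of 8.07 and 6.43 in dpy-9.

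The cuticle genes bli-1 and bli-2, 2 of 4 on the adult cuticle list, were also called higher in these 3 mutants (osm-8 3.28 and 4.54, dpy-9 4.82 and 5.74, dpy-10 5.26 and 6.26), and the adult collagen gene col-19 was not (-0.21, -0.78 and -0.45). Of 5 yolk genes, 3 were lower in dpy-9 but 0 in osm-8 or dpy-10, with a summed intensity of 171900 to 186400 in N2, 127100 to 138900 in osm-8, 46440 to 74730 in dpy-9 and 92480 to 99420 in dpy-10. Of 9 muscle genes, 2 were higher in osm-8 and 4 in each dpy mutant. Over all probe sets tested, 7.91%, 16.0% and 18.1% were higher and 0.887%, 7.98% and 10.2% lower in osm-8, dpy-9 and dpy-10. Per the methods, the size gate excluded worms of the fourth larval stage and younger. The part of the worms' developmental stage, or of body size at the gate, in the sperm gene levels of osm-8, dpy-9 and dpy-10 was not tested.

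**Figure D5:**
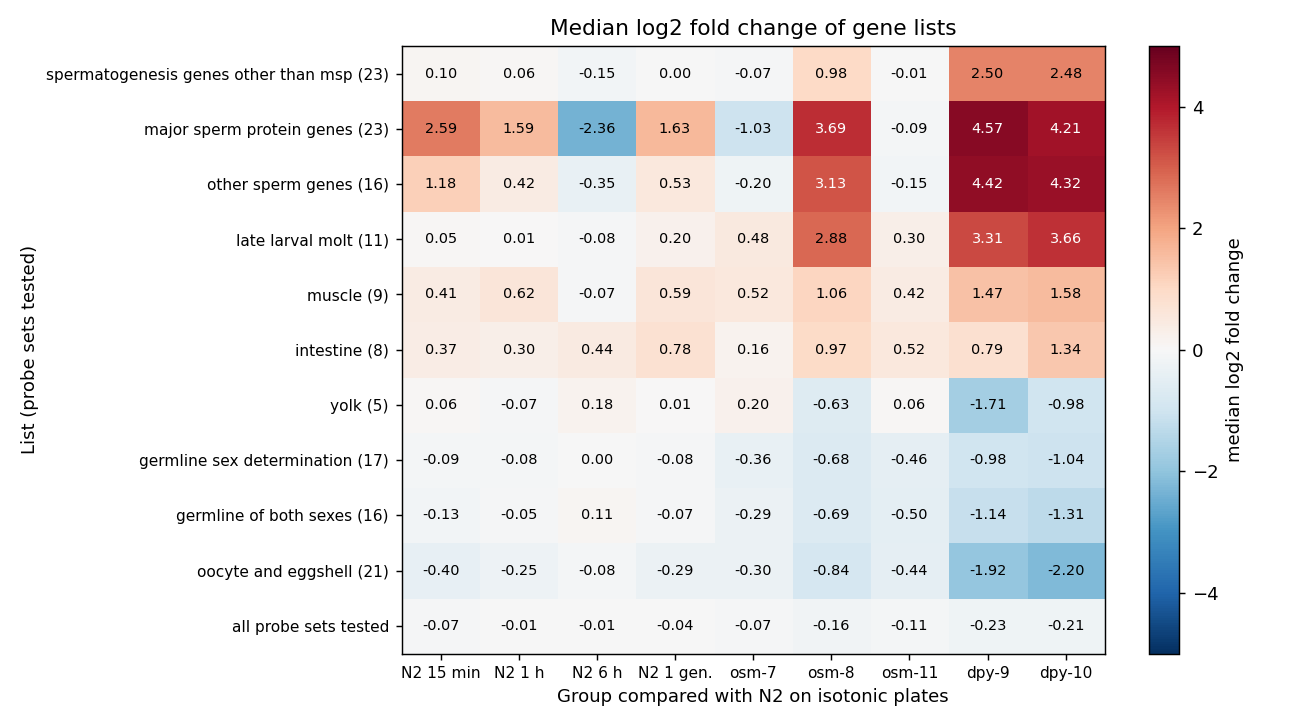
Median log2 fold change against N2 on isotonic plates (number and colour of each cell) of the 23 tested members, other gene lists and all probe sets tested, for the 4 exposures and 5 mutants. The members' median is 0.98, 2.50 and 2.48 in osm-8, dpy-9 and dpy-10, where the late larval molt list is at 2.88, 3.31 and 3.66 and the oocyte and eggshell list at -0.84, -1.92 and -2.20.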

How the data were processed

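RNA of 30 pools of C. elegans was hybridized to Affymetrix GeneChips, 3 per group. Values were normalized by the authors with GC-RMA in Partek software and deposited as linear intensities, of which the log2 was taken here. Present calls were not used here. Probe sets were ranked by their value on the array where they were 3rd brightest, and as many as the methods call present, 61.5% of those that are not controls, entered the tests. Models were fitted with limma 3.58.1 in R 4.3.3, 1 over the 15 wild type arrays and 1 over the 18 isotonic arrays, with Benjamini-Hochberg adjustment over all probe sets tested. The study's methods used SAM, a test that permutes arrays, at 3-fold; limma took its place. The probe annotation was that of the platform, and 39 of 39 members matched the RefSeq table of WBcel235. A standard error is that of a contrast in the fit. The methods describe the replicates as individual preparations, of which those with the best RNA were hybridized. The p-values measure the spread between these arrays, and their number limits the precision.

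The members and lists were chosen with earlier results of these data known. Every member may be named. Values of every array are given for members called in an N2 exposure and for the 2 tested members of each role with the largest range of group means, and genes named from another list are among its 4 with the largest change, except zipt-7.1, which was named after its values were seen because it alone of its list was called lower in the dpy mutants. The lists were sperm genes outside the member families, msp genes, germline sex determination, oocyte and eggshell, germline of both sexes, early zygotic embryo, yolk, adult cuticle, late larval molt, muscle and intestine. Alternatives covered the filter, an added intensity of 32, quantile normalization, centring, the variance prior, the arrays in the fit, the thresholds, probe sets ending in _x_at or _s_at, a replicate block and each array left out. The tests were tested on simulated data. No sequence is printed, since none was used here. Figures were drawn with Python 3.11.15 and matplotlib 3.10.9.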

Additional observations from a re-analysis of the deposited data

Results flagged for a closer look

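Differences between groups of one kind, tested directly in limma, passed the threshold for 28 pairs of member and comparison, and no explanation was weighed for them. Between 1 h and 6 h on 200 mM NaCl the log2 difference was -3.66 for nspd-4, -3.49 for nspd-2, -3.48 for nspd-1, -2.44 for nspd-7 and -2.36 for gsp-3. Between 6 h and 1 generation it was 3.52 for nspd-2, 3.51 for nspd-1, 3.48 for nspd-4, 2.40 for nspd-7, 1.96 for gsp-3 and 1.66 for gsp-4.

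Between osm-7 and osm-8 the difference was 5.78 for gsp-3, 5.07 for nspd-1, 4.86 for nspd-4, 4.61 for nspd-2, 4.41 for spe-18, 4.11 for gsp-4, 3.67 for nspd-7, 2.49 for spe-11, 2.26 for spe-4 and 1.88 for spe-46, all higher in osm-8, with the spe-46 difference at 1.50 and under 3-fold without osm-8 replicate 2. Between osm-8 and dpy-9 it was 2.47 for spe-46 and for spe-11, 2.43 for spe-4, 2.14 for spe-26, 1.96 for spe-54, 1.80 for spe-18 and 1.65 for gsp-4, all higher in dpy-9.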

How the results depend on the processing

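None of the 79 calls of a member in the 16 comparisons changed direction under any alternative, 6 of them were lost when some array was left out, and 34 with 32 added to each intensity. Over arrays left out in turn, the count of members called was 1 to 3 at 1 h, 1 to 2 after 1 generation, 3 to 4 at 6 h, 14 to 16 in dpy-10, 4 to 6 between 6 h and 1 generation and 6 to 8 between osm-8 and dpy-9, and it did not move in the other 10 comparisons. Without N2 isotonic replicate 2, 1 h replicate 1 or 1 h replicate 2, 1 member was called at 1 h, and without N2 isotonic replicate 3 or 1 generation replicate 1, 2 were called after 1 generation. At 1 h the count was also 1 without the filter, with quantile normalization and with a replicate block. With 32 added to each intensity, which shrinks changes of dim probe sets, it was 3 at 15 min, 0 at 1 h, 6 h and 1 generation, 3 between 1 h and 6 h, 3 between 6 h and 1 generation, 1 between osm-8 and dpy-9, 7 in osm-8 against N2 and against osm-7, 10 in dpy-9 and 11 in dpy-10. With probe sets of the suffixes _x_at and _s_at removed, 11 tested members were left and the count was 0 at each of the 4 exposures, between 1 h and 6 h and between 6 h and 1 generation, 3 in osm-8 against N2 and against osm-7, 6 in dpy-9, 5 in dpy-10 and 4 between osm-8 and dpy-9. At an adjusted p of 0.05 and 2-fold, it was 6 at 1 h, 6 after 1 generation, 1 in osm-7, 2 between 15 min and 1 h and 12 between osm-8 and dpy-9. The replicate numbers paired the arrays in 1 of 16 comparisons, osm-8 against osm-7, by correlations of 0.122 to 0.407 (over all comparisons -0.463 to 0.407), and the block changed no other call than that of gsp-3 at 1 h (adjusted p = 0.011 in limma). The filter was also taken over the 24 arrays outside dpy-9 and dpy-10, an alternative chosen after seeing the data. Of the 20 members then tested, 14 were called in dpy-9, 13 in dpy-10 and 6 between osm-8 and dpy-9. The genes spe-41, spe-10 and spe-26 had passed only through the dpy arrays. Among the 24 arrays, spe-4, spe-46 and spe-55 passed only through those of osm-8.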

Other observations

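Genes that decide the sex of the germ line were read as a further list, and none of the member families belongs to it. Of 17 tested, 0 were called at any N2 exposure (at 15 min, median -0.09), in osm-7 or in osm-11. In osm-8, 1 was higher, and in dpy-10, 1 was higher and 3 lower, whereas in dpy-9 2 were lower. Over all probe sets tested, 7.91% were higher in osm-8 and 18.1% in dpy-10, and 7.98% were lower in dpy-9 and 10.2% in dpy-10. Whether the list differs from these shares was not tested. The gene called higher was fog-3, which directs germ cells to become sperm, at a near-background N2 mean of 2.59 and with log2 changes of 2.15 in osm-8 (adjusted p = 1.13e-05 in limma), 0.96 in dpy-9 (adjusted p = 0.00559, under 3-fold) and 2.35 in dpy-10 (adjusted p = 1.21e-06). The gene tra-2, which promotes the female fate, changed by -2.46 and -2.67 in dpy-9 and dpy-10, and fem-3, which promotes sperm, by -1.83 and -2.12.

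Of 8 intestine genes, 1 was called lower at 15 min, and 1, 2 and 3 were higher in osm-8, dpy-9 and dpy-10. Over all probe sets tested, 0.274% were lower at 15 min, and 7.91%, 16.0% and 18.1% were higher in these mutants. Whether the list differs from these shares was not tested. Of 6 tested genes of the early zygotic embryo, elt-7 was higher (2.07 and 1.91) and pes-10 lower (-1.67 in each) in dpy-9 and dpy-10. The dpy-10 mean of pes-10 was near background, at 2.48. Over all probe sets tested, 16.0% and 18.1% were higher and 7.98% and 10.2% lower in dpy-9 and dpy-10. For this list too, a difference from these shares was not tested.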
